A study of Aphis gossypii with 6 samples.

Results

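The genes described here carry amino acids across membranes or convert one amino acid into another in the cotton aphid, Aphis gossypii. They were chosen by their product text, from names such as amino acid transporter, glutamine synthetase, cystathionine and aminotransferase, with vesicular and glucosamine names left out. Earlier results of these data were known when the choice was made. The rule found 65 genes of the 14013 listed, of which 37 were transporters and 28 were enzymes, mitochondrial carriers or regulators. RNA from pooled whole bodies was sequenced in 3 libraries of RGL, a beta-cypermethrin-resistant strain, and 3 libraries of SGL, the sensitive strain whose genotype is labelled WT. Neither strain was exposed to the insecticide, a pyrethroid, before RNA was taken. The resistant aphids came from a field of Chinese wolfberry, per the study's title. Age and morph of the aphids are not stated in the labels. Nor do these say that each library had its own culture, and p-values here reflect only how far the sequenced samples differ, which could be technical variation. Each condition is a single strain, so resistance cannot be told apart from other differences between the strains.

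Aphids live on phloem sap, which is rich in sucrose and non-essential amino acids but poor in essential ones. The bacterial partner Buchnera, housed in specialised cells called bacteriocytes, makes essential amino acids for the host. In the pea aphid, glutamine synthetase and glutamate synthase of the bacteriocyte turn waste ammonia into glutamate, host aminotransferases complete the synthesis of several amino acids, and a transporter of the proton-coupled superfamily brings glutamine into the bacteriocyte. The same enzymes and carriers also act in the gut, fat body and other tissues, and in whole bodies a larger number of cells of a type and more RNA per cell cannot be told apart.

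The libraries held 31290134 to 46681719 counts. RGL replicate 1 stood apart from RGL replicates 2 and 3: their counts differed by a chi-square per degree of freedom of 91.8 and 116, against 18.3 between RGL replicates 2 and 3 and 6.66 to 7.78 among SGL libraries. Markers of muscle, nerve, germ line, cuticle, gut, and blood or fat body had counts. Gut markers (cathepsin B, maltase and aminopeptidase N genes) had a count in 36 of 38, with both undetected genes named cathepsin B-like, and their summed level was 11925 to 15356 counts per 1000000 (CPM) in RGL against 4411 to 4662 CPM in SGL. Of 34 tested gut markers 28 rose and 0 fell, where 21.4% of all tested genes rose and 14.4% fell. The 10 fat body and blood cell markers summed to 789 to 816 CPM in RGL and 503 to 561 CPM in SGL, with 5 higher and 0 lower. Summed cuticle proteins were 16963 to 30118 CPM in RGL and 12629 to 13099 CPM in SGL (50 of 50 with a count), with 28 of 48 tested higher and 3 lower. Embryo and germ line markers were at 4265 to 5933 CPM in RGL and 4250 to 4333 CPM in SGL (93 of 93 with a count), with 8 of 88 tested higher and 11 lower. Nerve markers were at 722 to 751 CPM in RGL and 761 to 788 CPM in SGL (14 of 14 with a count), with 3 higher and 3 lower. Muscle markers were at 12992 to 14715 CPM in RGL and 12163 to 12848 CPM in SGL (20 of 20 with a count), with 4 higher and 6 lower. The part of these tissues in the results below was not tested. No marker list was used for bacteriocytes, and their share of the body was not measured.

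Transcripts of amino acid exchange and metabolism were mostly higher in RGL. Of the 65 genes, all tested, 44 rose and 3 fell in RGL relative to SGL at an adjusted p under 0.05 (edgeR quasi-likelihood test, Benjamini-Hochberg adjustment over 11149 genes). That is 67.7% higher, where 21.4% of all tested genes were higher, and 4.62% lower, where 14.4% of all tested genes were lower. A rise of at least 2-fold was seen in 15 members, where 8.31% of all tested genes rose as far, and a fall as large in 0 members, where 1.96% of all tested genes fell as far. The median log2 fold change of the 65 was 0.58, beside -0.004 for all tested genes. Summed over the members, RGL replicates 1 to 3 held 13342, 11215 and 10873 CPM, and SGL replicates 1 to 3 held 8389, 8492 and 8466 CPM. The strains did not overlap in 47 members with RGL higher, where 28.2% of all tested genes were so placed, and in 9 members with RGL lower, where 25.8% of all tested genes were.

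The rise was not confined to RGL replicate 1, but that library was the highest of its strain in 48 of 65 members (73.8%), as in 42.0% of all tested genes. Without it 46 members rose and 9 fell, while 28.6% of all tested genes rose and 24.9% fell. The 2 remaining RGL libraries both lay above all SGL libraries in 47 members, 72.3% in place of 35.7% of all tested genes. The log2 fold change was smaller without RGL replicate 1 in 51 of the 65. Falls were the less stable count. Leaving out SGL replicate 1, 2 or 3 left 1 fall each time and 38, 36 and 38 rises. Over all tested genes the share higher was then 14.8%, 14.9% and 14.1%, and the share lower 7.22%, 6.96% and 6.97%. With libraries scaled by their totals alone, which moved the median of all tested genes by -0.15 on the log2 scale, 39 members rose and 8 fell, 83.0% of the calls higher in place of 93.6%. Over all tested genes the same scaling gave 43.1% of calls higher in place of 59.7%.

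**Figure D1:**
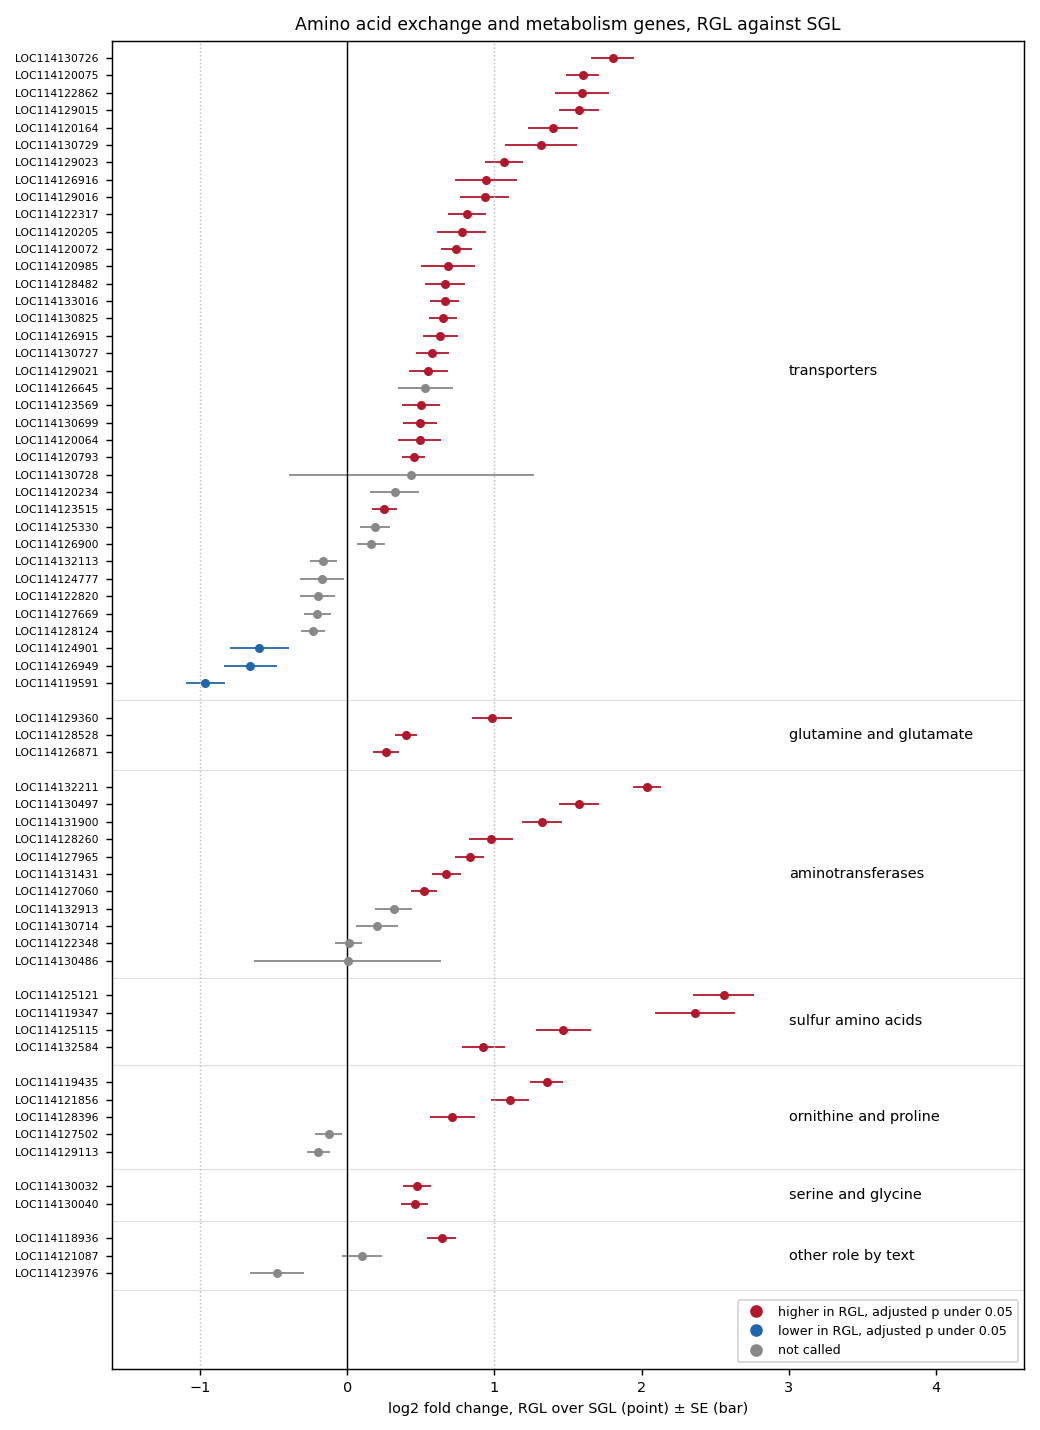
Log2 fold change of RGL over SGL with its SE (bar) for each of the 65 genes, grouped by role; the dotted lines mark a 2-fold difference. Of the 65 points, 44 lie right of 0 as called rises, 3 of the transporters lie left of 0 as called falls, and the sulfur amino acid enzymes reach furthest to the right.

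**Figure D2:**
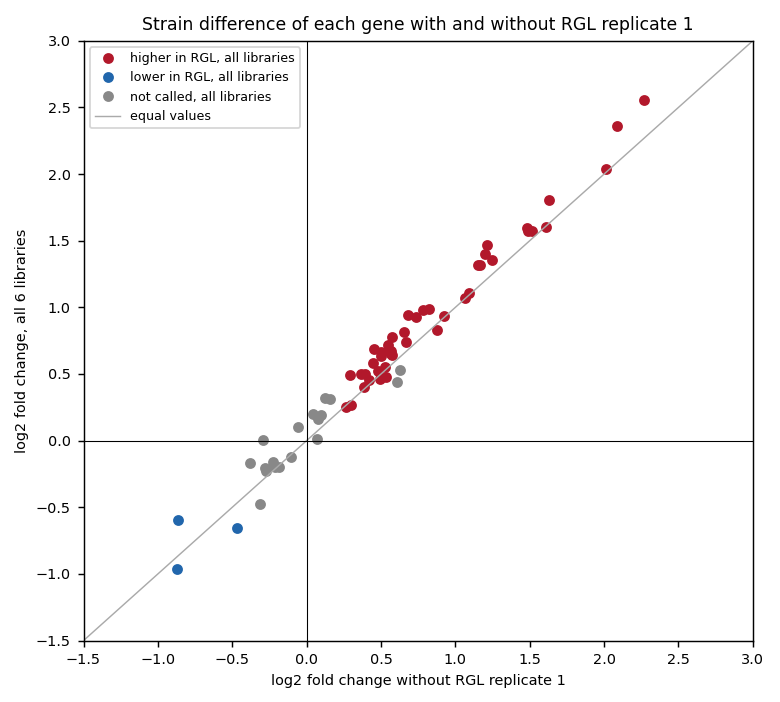
Log2 fold change of RGL over SGL from all 6 libraries (vertical axis) against the value without RGL replicate 1 (horizontal axis), with a point for each of the 65 genes, coloured by the call from all libraries; the grey line marks equal values. Of the points, 51 lie above the line, and the called rises stay right of 0.

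Of the enzymes that make glutamine and glutamate all 3 passed as higher in RGL, beside 21.4% of all tested genes, glutamate synthase by a narrow margin. Glutamine synthetase, LOC114129360, which joins ammonia to glutamate, averaged 1082 FPKM in RGL, the highest of all members there, and 607 FPKM in SGL, where antizyme was higher at 634 FPKM. It stood at 1983, 1528 and 1405 CPM in the RGL libraries, against 829, 821 and 836 CPM in the SGL libraries. Every RGL value lay above the SGL range, and RGL replicate 1 was the highest. Its log2 fold change was 0.98 ± 0.14 (± SE, adjusted p = 0.00115), close to 2-fold. Glutamate dehydrogenase, LOC114128528, which interconverts glutamate and 2-oxoglutarate in mitochondria, stood at 392, 387 and 377 CPM in the RGL libraries, against 287, 295 and 293 CPM in the SGL libraries. The strains were clear of each other and each was tightly grouped, with a log2 fold change of 0.40 ± 0.08 (adjusted p = 0.00483). Glutamate synthase, LOC114126871, which makes glutamate from glutamine and 2-oxoglutarate, stood at 573, 632 and 598 CPM in the RGL libraries, against 483, 515 and 505 CPM in the SGL libraries. It rose by the smallest amount of the 3, 0.26 ± 0.09 on the log2 scale (adjusted p = 0.0466). That call was lost without RGL replicates 2 and 3 (adjusted p = 0.157 and 0.0669), without SGL replicates 1, 2 and 3 (0.192, 0.125 and 0.172) with library totals alone (0.392), with the replicate block (0.103), with DESeq2 size factors (0.0565) and with no low-count filter (0.0554). It was kept in 4 of 13 alternative fits.

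Within a library, where scaling has no part, the count ratio of glutamine synthetase to glutamate synthase was 3.46, 2.42 and 2.35 in RGL replicates 1 to 3 and 1.72, 1.59 and 1.66 in SGL replicates 1 to 3. Such a ratio depends on the lengths of both genes and is used only to compare the strains. The ratios of the strains did not overlap, and the RGL mean was 2.74 ± 0.62 against an SGL mean of 1.66 ± 0.06 (SD, n = 3 each). Against glutamate dehydrogenase the ratio was 5.05, 3.95 and 3.73 in RGL and 2.88, 2.78 and 2.85 in SGL. An exact two-sided permutation test of 3 libraries against 3 gave p = 0.1 for each ratio, the smallest p that it allows. Groups that do not overlap always give this value, so the test adds nothing to the ratios themselves.

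Enzymes of sulfur amino acids held the top 2 rises of the 65 genes. Cystathionine beta-synthase joins homocysteine to serine, and cystathionine gamma-lyase splits the product to release cysteine. All 4 genes with these names rose, where 21.4% of all tested genes were higher, and 3 rose at least 2-fold, where 8.31% did. Their summed level was 704, 449 and 435 CPM in RGL replicates 1 to 3, against 168, 157 and 156 CPM in SGL replicates 1 to 3. The gamma-lyase-like LOC114125121 stood at 322, 200.5 and 184 CPM in the RGL libraries, against 40.3, 40.0 and 39.6 CPM in the SGL libraries. The lowest RGL library was thus far above every SGL library, and the log2 fold change was 2.56 ± 0.20 (adjusted p = 7.96e-05), or 2.27 without RGL replicate 1. The putative gamma-lyase LOC114119347 stood at 34.6, 21.7 and 20.2 CPM in the RGL libraries, against 3.71, 4.72 and 6.44 CPM in the SGL libraries, a log2 fold change of 2.36 ± 0.27 (adjusted p = 0.000434). The third gamma-lyase gene, LOC114125115, whose product is marked partial, stood at 208, 127 and 136 CPM in the RGL libraries, against 63.0, 54.2 and 52.6 CPM in the SGL libraries (1.47 ± 0.19 on the log2 scale, adjusted p = 0.000685).

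Per length, LOC114125115 averaged 219 FPKM in RGL and 88.3 FPKM in SGL, and LOC114125121 averaged 209.8 FPKM in RGL and 39.8 FPKM in SGL. LOC114119347 was the lowest, with a mean of 17.0 FPKM over the 6 libraries. Cystathionine beta-synthase, LOC114132584, the entry to the route, changed less: 139, 100.1 and 95.4 CPM in the RGL libraries, against 60.9, 58.1 and 57.2 CPM in the SGL libraries, with a log2 fold change of 0.92 ± 0.15 (adjusted p = 0.00191). In each of the 4 genes RGL replicate 1 was the highest library, with a median of 0.68 log2 units above the mean of RGL replicates 2 and 3, where the 65 members had 0.26 and all tested genes -0.02. Without it the smallest and largest log2 fold changes of the 4 were 0.73 and 2.27. The gamma-lyase genes share a name, and the sources used here do not state how reads that fit more than 1 copy were assigned, so the value of each copy is uncertain.

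**Figure D3:**
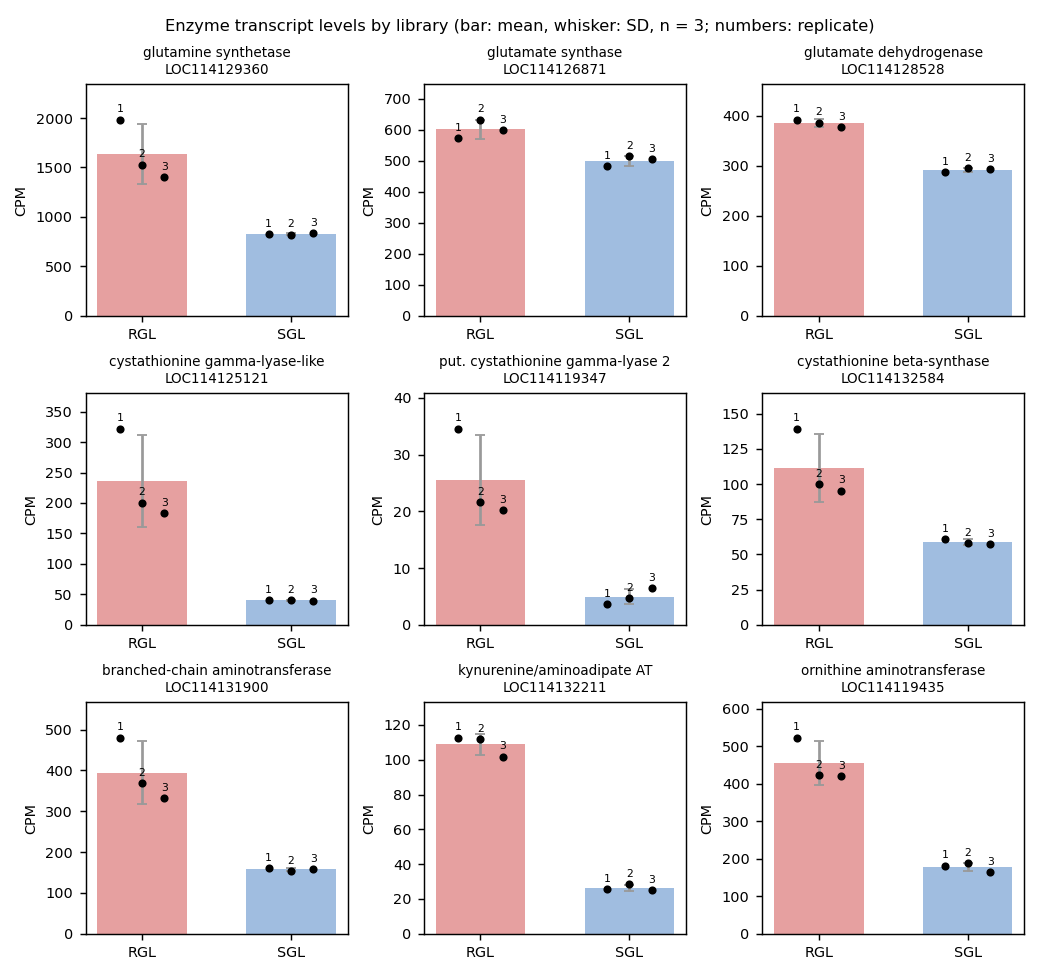
Transcript level in CPM of 9 enzymes in each library (points, numbered by replicate), with the mean (bar) and SD (whisker) of the 3 libraries of RGL (left) and SGL (right). In each panel the 3 RGL points lie above the 3 SGL points, closest together for glutamate synthase and furthest apart for the gamma-lyase genes.

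Aminotransferases move amino groups between amino acids and keto acids. Of 11 genes 7 rose (63.6%, beside 21.4% of all tested genes) and 0 fell, with a median log2 fold change of 0.67. The greatest rise was in the kynurenine/alpha-aminoadipate aminotransferase LOC114132211, which acts on tryptophan and lysine breakdown products in animals. It stood at 113, 112 and 102 CPM in the RGL libraries, against 25.8, 28.5 and 25.3 CPM in the SGL libraries, with all RGL libraries close together (2.04 ± 0.10 on the log2 scale, adjusted p = 1.02e-05). The branched-chain aminotransferase LOC114131900 moves amino groups between leucine, isoleucine or valine and their keto acids, in a direction that was not measured here. In the pea aphid bacteriocyte it carries out the final step of their synthesis. It had the highest mean FPKM of the group over the 6 libraries, 109.9, but in SGL, at 67.6 FPKM, LOC114132913 was higher, at 87.5 FPKM. It stood at 480.4, 369 and 332 CPM in the RGL libraries, against 161, 153 and 159 CPM in the SGL libraries. The strains did not overlap, RGL replicate 1 was the highest, and the log2 fold change was 1.32 ± 0.14 (adjusted p = 0.000253).

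Aspartate aminotransferase, which links aspartate to glutamate, is given for 4 genes. The cytoplasmic-like LOC114130497 was low but rose most, at 23.9, 19.9 and 22.5 CPM in the RGL libraries, against 7.32, 7.01 and 7.90 CPM in the SGL libraries (1.57 ± 0.14 on the log2 scale, adjusted p = 0.000103). The main cytoplasmic gene, LOC114127965, rose by 0.83 ± 0.10 to a mean of 128 CPM in RGL, against 71.8 CPM in SGL. The mitochondrial gene, LOC114127060, rose by 0.52 ± 0.09. The fourth, LOC114130486, had 98 counts over all libraries and did not pass the test (adjusted p = 0.997). Phosphoserine aminotransferase, LOC114131431, a step in serine synthesis, rose by 0.67 ± 0.10 (adjusted p = 0.0015). Alanine--glyoxylate aminotransferase 2-like LOC114128260 stood at 124, 83.8 and 88.8 CPM in the RGL libraries, against 48.4, 49.2 and 53.0 CPM in the SGL libraries (0.98 ± 0.15, adjusted p = 0.00172), although its KEGG term in the table is ethanolamine-phosphate phospho-lyase, an enzyme of phospholipid breakdown. Alanine aminotransferase, LOC114122348, did not pass and was at 211, 238 and 242 CPM in the RGL libraries, against 218, 243 and 225 CPM in the SGL libraries, where the ranges overlapped. The other genes that did not pass were a 4-aminobutyrate aminotransferase, LOC114132913 (0.31 ± 0.12, adjusted p = 0.08, or 0.0254 without RGL replicate 1), and the mitochondrial alanine--glyoxylate aminotransferase LOC114130714 (0.20 ± 0.14, adjusted p = 0.29).

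Ornithine and proline can be made from each other and from glutamate. Ornithine aminotransferase, LOC114119435, which converts ornithine to the precursor of proline and glutamate, stood at 523, 423 and 421 CPM in the RGL libraries, against 182, 188 and 165 CPM in the SGL libraries. Every RGL library was higher than every SGL library, with a log2 fold change of 1.35 ± 0.11 (adjusted p = 9.30e-05). Both genes named mitochondrial ornithine transporter rose too. LOC114121856 was at 21.8, 20.7 and 21.7 CPM in the RGL libraries, against 10.8, 8.83 and 10.2 CPM in the SGL libraries (1.10 ± 0.13, adjusted p = 0.000447), and LOC114128396 was at 38, 29.4 and 25.8 CPM in the RGL libraries, against 19.2, 18.8 and 18.7 CPM in the SGL libraries (0.71 ± 0.15, adjusted p = 0.00793). Ornithine decarboxylase, LOC114127502, the first step to polyamines and at 354 FPKM the most abundant enzyme of this group, was at 767, 779 and 824 CPM in the RGL libraries, against 834, 897 and 854 CPM in the SGL libraries. Its RGL values were all under its SGL values, but the difference did not pass the test (-0.13 ± 0.09, adjusted p = 0.309). Proline dehydrogenase, LOC114129113, which breaks proline down in mitochondria, was at 404, 393 and 383 CPM in the RGL libraries, against 449, 445 and 456 CPM in the SGL libraries and also did not pass (-0.20 ± 0.08, adjusted p = 0.0891). It did pass as lower without RGL replicate 1 (-0.21, adjusted p = 0.00274), with library totals alone (0.0104) and by DESeq2 (0.0243).

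The enzyme on the opposite side of proline, delta-1-pyrroline-5-carboxylate synthase, LOC114124062, is not among the 65 and comes from the pathway lists below. It makes the proline precursor from glutamate, and stood at 668, 509 and 478 CPM in the RGL libraries, against 214, 211 and 214 CPM in the SGL libraries (1.37 ± 0.13, adjusted p = 0.000181). Its count ratio to proline dehydrogenase within a library was 1.66, 1.30 and 1.25 in RGL replicates 1 to 3 and 0.478, 0.474 and 0.469 in SGL replicates 1 to 3. The RGL ratios did not overlap the SGL ratios.

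Serine hydroxymethyltransferase, which moves a one-carbon unit between serine and glycine with folate as carrier, is given for 2 genes with nearly equal values. LOC114130032 was at 76.1, 82.6 and 90.9 CPM in the RGL libraries, against 62.2, 60.7 and 56.7 CPM in the SGL libraries (0.47 ± 0.10, adjusted p = 0.00614). LOC114130040 was at 73.8, 78.1 and 81.1 CPM in the RGL libraries, against 52.3, 58.8 and 58.4 CPM in the SGL libraries (0.46 ± 0.09, adjusted p = 0.00539). In both, RGL replicate 1 was the lowest RGL library, unlike most members, and both calls were lost with library totals alone (adjusted p = 0.0837 and 0.0727). They share a name, and reads of the pair may have been divided between them. Only LOC114130040 matched the RefSeq gene table used below for gene order, and whether the 2 are separate genes was not tested.

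A further 3 members met the text rule but have another role. Glutamine--fructose-6-phosphate aminotransferase, LOC114118936, the entry to amino sugars for chitin, rose, with 314, 294 and 252 CPM in the RGL libraries, against 174, 193 and 184 CPM in the SGL libraries (0.64 ± 0.10, adjusted p = 0.00194). Ornithine decarboxylase antizyme, LOC114121087, a brake on polyamine synthesis and the most abundant of the 3 at 624 FPKM, was at 954, 692 and 710.5 CPM in the RGL libraries, against 754, 728 and 713 CPM in the SGL libraries. The ranges overlapped, it did not pass (0.10 ± 0.14, adjusted p = 0.583) and its estimate turned to -0.06 without RGL replicate 1 and to -0.06 with library totals alone. Folylpolyglutamate synthase, LOC114123976, an enzyme of folate retention, was at 19.3, 24.9 and 32.6 CPM in the RGL libraries, against 36.2, 32.7 and 38.2 CPM in the SGL libraries and did not pass (-0.48 ± 0.18, adjusted p = 0.0743), though it passed as lower without RGL replicate 1 (adjusted p = 0.0222), without RGL replicate 3 (0.0092), with the replicate block (0.0497) and by DESeq2 (0.0366). No member matched phenylalanine hydroxylase by its text. LOC114127118, named protein henna after the Drosophila gene and given the KEGG term phenylalanine-4-hydroxylase in the table, was looked up after the values were seen. It converts phenylalanine to tyrosine, and stood at 148, 102 and 86.6 CPM in the RGL libraries, against 21.9, 22.2 and 22.1 CPM in the SGL libraries, a log2 fold change of 2.35 ± 0.19 (adjusted p = 8.14e-05).

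Transporters made up 37 of the 65 members, and 24 rose, 3 fell and 10 did not pass, with a median log2 fold change of 0.55. That is 64.9% higher and 8.11% lower, beside 21.4% higher and 14.4% lower of all tested genes. The falls were fewer without SGL replicates 1, 2 and 3, with 1 each time, and were 7 without RGL replicate 1. By the KEGG term in the table, 16 belong to solute carrier family 7 (SLC7), which exchanges or takes up cationic and neutral amino acids, 14 to the proton-coupled family SLC36, 3 to the sodium-coupled SLC38, 2 to the glutamate carriers SLC1, and 1 each to SLC6 and SLC32. Of the SLC36 genes 11 rose and 0 fell, and of the SLC7 genes 9 rose and 2 fell. Whether these families differ from each other was not tested.

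Among the proton-coupled carriers, 7 bear the name of Drosophila CG1139 and 5 that of pathetic, both tied to growth control in Drosophila. The pathetic-like LOC114130726 stood at 214, 165 and 143 CPM in the RGL libraries, against 52.0, 49.3 and 47.9 CPM in the SGL libraries. RGL lay far above SGL in every library, with a log2 fold change of 1.80 ± 0.15 (adjusted p = 8.43e-05), the greatest rise of any transporter. The transporter 4-like LOC114120075 stood at 32.8, 34.0 and 32.6 CPM in the RGL libraries, against 10.9, 11.6 and 10.4 CPM in the SGL libraries, with little spread in either strain (1.60 ± 0.11, adjusted p = 3.66e-05). LOC114130729, named ANT1-like, rose by 1.32 ± 0.25 (adjusted p = 0.00426), with a level of only 4.90 FPKM. Of the CG1139-like genes 5 of 7 rose, by 0.25 to 0.94 on the log2 scale, and 0 fell, where 21.4% of all tested genes were higher and 14.4% lower. Their median log2 fold change was 0.58, and that of the 5 pathetic-like genes was 0.50. Among the called CG1139-like genes, LOC114123515 had the smallest rise (0.25 ± 0.08, adjusted p = 0.0446). Its call was lost with library totals alone (adjusted p = 0.46), without RGL replicates 2 and 3 (0.149 and 0.0567), without SGL replicates 1, 2 and 3 (0.19, 0.118 and 0.119), with the replicate block (0.0985), with DESeq2 size factors (0.0517) and with no low-count filter (0.0532). It too was kept in 4 of 13 alternative fits. The greatest rise among them was in LOC114126916 (0.94 ± 0.21, adjusted p = 0.0102, or 0.0536 without SGL replicate 2). LOC114124777, also CG1139-like, was at 197, 140.0 and 129 CPM in the RGL libraries, against 172, 180.1 and 172 CPM in the SGL libraries, with RGL replicate 1 above and RGL replicates 2 and 3 below SGL. It did not pass (adjusted p = 0.407) but passed as lower without RGL replicate 1 (-0.38, adjusted p = 3.08e-05) and with library totals alone (0.0422).

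Cationic amino acid transporters carry arginine, lysine and ornithine. Of 11 with that name 8 rose and 1 fell, beside 21.4% higher and 14.4% lower of all tested genes. LOC114129015, of the high affinity type, stood at 22.2, 19.0 and 18.3 CPM in the RGL libraries, against 6.75, 6.46 and 6.77 CPM in the SGL libraries (1.58 ± 0.14, adjusted p = 0.000112). LOC114120164, of type 3, stood at 82.3, 59.5 and 53.4 CPM in the RGL libraries, against 27.3, 22.9 and 23.7 CPM in the SGL libraries (1.40 ± 0.17, adjusted p = 0.000544). Type 3 also gave the clearest fall of all members. LOC114119591 stood at 10.1, 12.3 and 12.8 CPM in the RGL libraries, against 21.9, 23.6 and 23.3 CPM in the SGL libraries, a log2 fold change of -0.96 ± 0.13 (adjusted p = 0.00097), and all SGL libraries were above all RGL libraries. Its KEGG term is SLC7 member 14, unlike that of the other gene. The most abundant of the 11 per length, LOC114122317, rose by 0.81 ± 0.13 (adjusted p = 0.0019).

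The names b(0,+)-type and Y+L are those of light chains that exchange cationic for neutral amino acids. By KEGG the Y+L genes are instead L-type SLC7 member 5 (LOC114120205 and LOC114120234) and member 8 (LOC114122820). What they carry was not measured. Of 3 Y+L genes 1 rose and 0 fell, and of 2 b(0,+)-type genes 0 rose and 1 fell. Of all tested genes 21.4% were higher and 14.4% lower. The b(0,+)-type LOC114132113 had the highest mean FPKM of any transporter over the 6 libraries, 176, with 157 FPKM in RGL and 194 FPKM in SGL, and was at 434, 396 and 371 CPM in the RGL libraries, against 439.6, 436 and 468 CPM in the SGL libraries. The RGL values lay just under the SGL values, and it did not pass (-0.16 ± 0.09, adjusted p = 0.207). It passed as lower without RGL replicate 1 (-0.22, adjusted p = 0.00333) and with library totals alone (-0.32, adjusted p = 0.012). The second b(0,+)-type gene, LOC114124901, stood at 17.6, 11.2 and 10.5 CPM in the RGL libraries, against 19.2, 19.1 and 20.8 CPM in the SGL libraries and fell by 0.60 on the log2 scale (SE 0.20, adjusted p = 0.0495). This call was lost with DESeq2 size factors (adjusted p = 0.0508) and without RGL replicate 2 (0.154), RGL replicate 3 (0.107) and SGL replicates 1, 2 and 3 (0.12, 0.118 and 0.15). The Y+L gene that rose was LOC114120205 (0.78 ± 0.17, adjusted p = 0.00786).

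The remaining carriers moved in both directions. LOC114122862, named sodium-coupled neutral amino acid transporter 2 but placed by KEGG with vesicular inhibitory amino acid transporters (SLC32), stood at 14.2, 12.5 and 9.99 CPM in the RGL libraries, against 3.66, 4.26 and 4.22 CPM in the SGL libraries (1.60 ± 0.18, adjusted p = 0.000411). The SLC38 genes 9-like (LOC114120793) and 11 (LOC114130699) rose by 0.45 ± 0.08 and 0.50 ± 0.12. In mammals, transporter 9 is a lysosomal arginine sensor. The call of transporter 11 was lost without SGL replicates 1 and 2 (adjusted p = 0.0585 and 0.0578). The SLC38 gene 10, LOC114126949, fell: 22.1, 34.5 and 36.1 CPM in the RGL libraries, against 53.2, 46.5 and 46.9 CPM in the SGL libraries, a log2 fold change of -0.66 ± 0.18 (adjusted p = 0.0223). It was lowest in RGL replicate 1, without which the value was -0.47, and its call was lost without SGL replicates 1, 2 and 3 (adjusted p = 0.0898, 0.0625 and 0.0586). The excitatory amino acid transporter LOC114130825, a glutamate carrier, averaged 184 FPKM in RGL, the highest mean of any transporter there, and 129 FPKM in SGL, where LOC114132113 was higher. It rose by 0.65 ± 0.10 (adjusted p = 0.00146). The sodium-dependent nutrient transporter LOC114128124, of SLC6, was at 99.3, 94.1 and 87.9 CPM in the RGL libraries, against 108, 108 and 113 CPM in the SGL libraries and did not pass (-0.23 ± 0.08, adjusted p = 0.0597), but passed as lower without RGL replicate 1 (adjusted p = 0.00126), with library totals alone (0.00907) and by DESeq2 (0.0414).

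Rises of at least 2-fold were found among transporters of lower and middle level. Of the 10 transporters with the highest mean FPKM (45.2 to 176), 6 rose and 0 fell, with log2 fold changes of -0.17 to 0.94 and 0 rising 2-fold. Of the 10 with the lowest (0.181 to 8.58 FPKM), 5 rose, 4 of them at least 2-fold, and 2 fell. The 17 between them held 13 rises and 1 fall. For comparison, 21.4% of all tested genes were higher, 8.31% at least 2-fold higher, and 14.4% lower. Whether level and direction are linked was not tested.

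**Figure D4:**
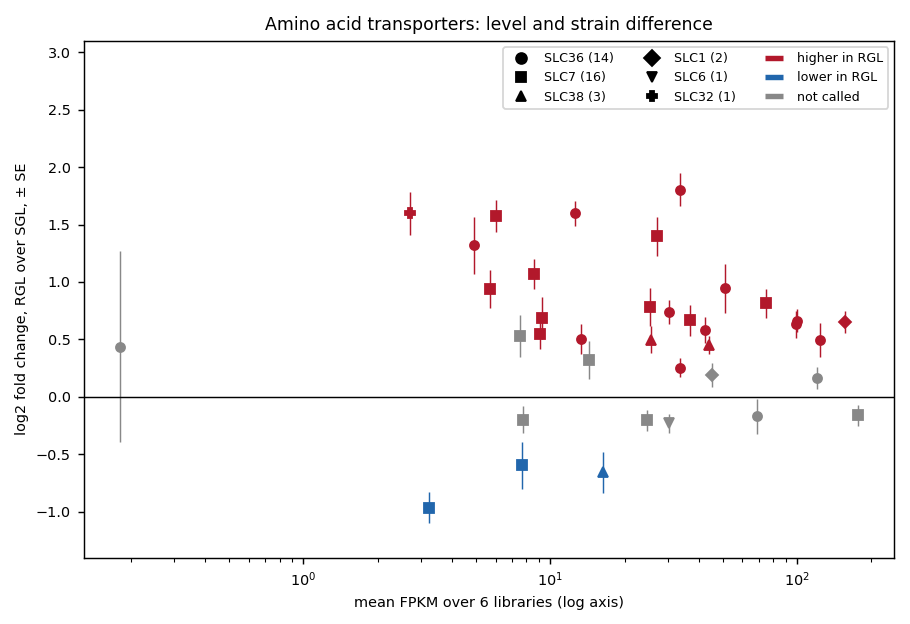
Log2 fold change of RGL over SGL with SE (vertical axis) against the mean FPKM over 6 libraries (horizontal log axis) for the 37 transporters, with the marker showing the solute carrier family and the colour the call. The 3 blue falls lie at 3.23, 7.67 and 16.4 FPKM, and among the 10 transporters of highest level no point reaches a log2 fold change of 1.

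Some members lie near each other in the reference assembly, though how often other genes form such runs was not measured. Of the 65, 58 matched the RefSeq gene table of assembly ASM2018417v2 and 57 were placed on a named chromosome, and 18 of these formed 6 runs in which the next member was at most 5 protein-coding genes further on. Members without a match were LOC114125115, LOC114126916, LOC114129016, LOC114130032 and LOC114130729, all called higher, and LOC114120234 and LOC114126645, which were not called. The sources used here do not name the build of the count table, so the order is that of the reference assembly. The longest run held 5 cationic transporters (LOC114128482, LOC114120164, LOC114129015, LOC114129021 and LOC114129023). All 5 rose, by 0.55 to 1.58 on the log2 scale, where 21.4% of all tested genes were higher. A run of 3 proton-coupled carriers (LOC114120064, LOC114120075 and LOC114120072) also rose, by 0.49, 1.60 and 0.74. In these runs the call of LOC114129021 was lost without SGL replicates 2 and 3 (adjusted p = 0.0534 and 0.0691) and with library totals alone (0.0658), and that of LOC114120064 without RGL replicate 2 (0.0537) and SGL replicates 1, 2 and 3 (0.101, 0.115 and 0.11). Neighbours differed in other runs. LOC114126915 rose by 0.63 ± 0.12 (adjusted p = 0.00421) while its neighbour LOC114126900, also CG1139-like, was at 0.16 ± 0.10 (adjusted p = 0.211). LOC114130726, the transporter with the greatest rise, lies next to LOC114130728, which was near the limit of detection in both strains, with 0.484, 0.629 and 0.928 CPM in RGL and 0.915, 0.579 and 0 CPM in SGL. Similar copies that lie close together may share reads, so such differences are uncertain.

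**Figure D5:**
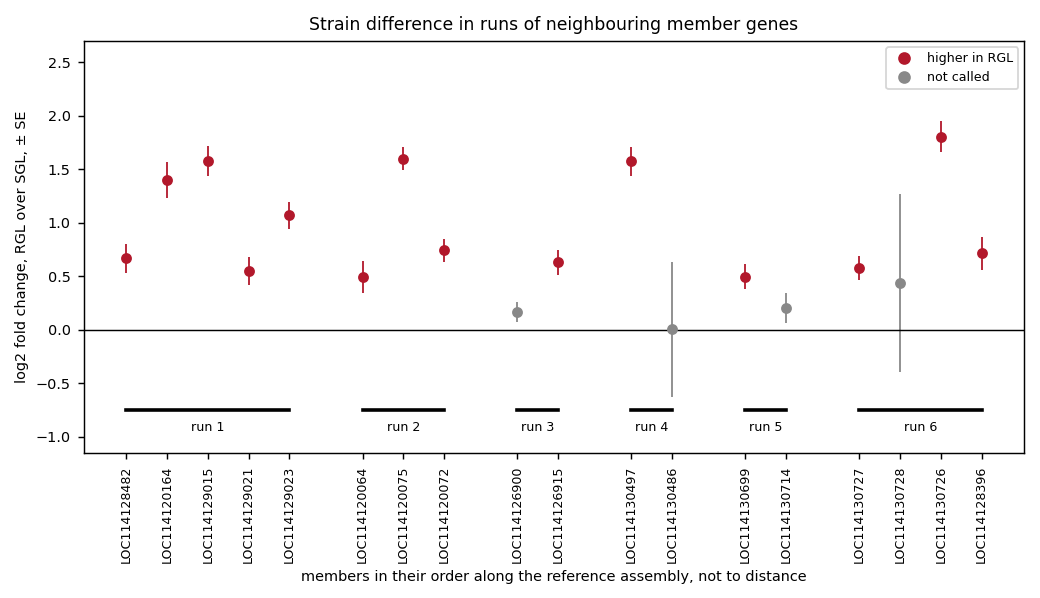
Log2 fold change of RGL over SGL with SE for the 18 members in 6 runs of neighbouring genes, in their order along the reference assembly and not to distance. All members of the runs of 5 cationic and 3 proton-coupled carriers are called higher, and each of the other 4 runs holds a member that is not called.

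Other genes of amino acid use, taken from lists of product names with the 65 left out, were also mostly higher in RGL where they passed. For comparison with each list, 21.4% of all tested genes were higher and 14.4% lower. In phenylalanine and tyrosine use 7 of 9 genes rose and 0 fell. Tyrosine 3-monooxygenase, LOC114123079, did not pass, at a mean of 1328 CPM in RGL and 1560 CPM in SGL (-0.23 ± 0.13, adjusted p = 0.208). Nor did GTP cyclohydrolase 1, LOC114123393 (0.25 ± 0.11, adjusted p = 0.116). The aromatic-L-amino-acid decarboxylase-like LOC114119005, of the family that makes dopamine and related amines, stood at 13.4, 11.5 and 10.2 CPM in the RGL libraries, against 3.27, 3.65 and 4.16 CPM in the SGL libraries (1.66 ± 0.18, adjusted p = 0.000304), and its fellow LOC114119006 at 127, 105 and 106 CPM in the RGL libraries, against 38.2, 40.2 and 42.4 CPM in the SGL libraries (1.48 ± 0.10, adjusted p = 4.28e-05). In branched-chain amino acid breakdown 8 of 9 rose and 1 fell (5 rose without SGL replicate 1 and without SGL replicate 3). 3-hydroxyisobutyrate dehydrogenase, LOC114124082, and 3-hydroxyisobutyryl-CoA hydrolase, LOC114131415, both in valine breakdown, rose by 1.38 ± 0.15 and 1.35 ± 0.16. Hydroxymethylglutaryl-CoA lyase, LOC114126224, in leucine breakdown, fell by 0.41 (SE 0.11, adjusted p = 0.0212), a call lost without RGL replicate 2 (0.0792) and SGL replicates 1, 2 and 3 (0.0844, 0.0678 and 0.089).

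In methionine, glycine and one-carbon metabolism 8 of 19 rose and 2 fell, beside 21.4% higher and 14.4% lower of all tested genes. The list follows product names, so it also holds a homocysteine-responsive ubiquitin-like protein, LOC114127565, which was not called. It holds gamma-butyrobetaine dioxygenase-like genes too, of which LOC114129356 rose (1.03 ± 0.16) and LOC114129344 did not pass. Cysteine dioxygenase, LOC114127504, which oxidises cysteine, stood at 319, 193 and 170.2 CPM in the RGL libraries, against 85.8, 90.4 and 84.9 CPM in the SGL libraries (1.38 ± 0.21, adjusted p = 0.00179). Glycine dehydrogenase, LOC114121806, of the glycine cleavage system, stood at 161, 141 and 143 CPM in the RGL libraries, against 56.9, 53.5 and 61.1 CPM in the SGL libraries (1.38 ± 0.09, adjusted p = 3.66e-05). Adenosylhomocysteinase, LOC114127083, which releases homocysteine, the substrate of cystathionine beta-synthase, was lower, at 557, 489 and 499 CPM in the RGL libraries, against 627, 651 and 629.9 CPM in the SGL libraries (-0.30 ± 0.09, adjusted p = 0.0322). That call was lost with the replicate block (adjusted p = 0.079), without RGL replicates 2 and 3 (0.107 and 0.0692) and SGL replicates 1, 2 and 3 (0.107, 0.13 and 0.113). The other fall, S-adenosylhomocysteine hydrolase-like protein 1, LOC114123245 (-0.46 ± 0.11, adjusted p = 0.0116), was lost without SGL replicate 2 (0.0571).

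In the list for arginine, lysine, histidine, asparagine and polyamines 8 of 15 tested genes rose and 1 fell, or 5 rose without SGL replicate 2 and without SGL replicate 3. A spermidine synthase-like gene, LOC114119479, stood at 98.8, 79.6 and 94.2 CPM in the RGL libraries, against 21.1, 19.6 and 21.1 CPM in the SGL libraries (2.14 ± 0.11, adjusted p = 1.37e-05), beside the synthase of the proline precursor given above. Other genes of that name did not rise: LOC114121890 did not pass (-0.01 ± 0.11, adjusted p = 0.963) and LOC114129863 was at 0 CPM in every library. The fall, in an asparagine synthetase domain protein, LOC114121637 (-0.30 ± 0.09, adjusted p = 0.0297), was lost with the replicate block (adjusted p = 0.0692), without RGL replicate 2 (0.0877) and SGL replicates 1, 2 and 3 (0.0775, 0.0842 and 0.127). Of 16 other amino acid and peptide carriers 8 rose and 0 fell (5 rose without SGL replicate 3). That list takes in vesicular glutamate transporters, of which LOC114119463, LOC114122010 and LOC114127042 rose and LOC114122000, LOC114122012 and LOC114122026 did not pass. Of the peptide transporters, LOC114127978 (1.03 ± 0.13), LOC114127961 (0.91 ± 0.18) and LOC114127960 (at 1.45 CPM in RGL) rose. LOC114124409, LOC114124410 and LOC114124417 did not pass (0.21, -0.35 and -0.36), and LOC114132280 was not tested. The list for bacterial cell wall proteins gave 2 lysozyme genes, whose products cut bacterial walls. The invertebrate-type LOC114119505 stood at 579, 340.5 and 307 CPM in the RGL libraries, against 115, 113 and 112 CPM in the SGL libraries (1.85 ± 0.22, adjusted p = 0.000528), and the other, LOC114119506, did not pass (0.48 ± 0.20, adjusted p = 0.09) except without RGL replicate 2, when both rose.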

How the data were processed

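RNA was sequenced from pooled whole bodies of cotton aphids in 6 libraries of 31290134 to 46681719 counts, grouped by sample title into 3 of RGL and 3 of SGL. Reads were handled with fastp 0.22.0 and HISAT2, per the submitters' processing notes. The sources used here do not give the counter, strand setting, annotation or genome build; without strand, overlapping or antisense genes cannot be told apart. The deposited table gives raw counts per gene and library, not normalized, per the file headers, and FPKM values that the authors computed for the same libraries. Counts were tested and FPKM, which corrects for gene length, was used only to compare levels between genes.

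Tests were run in edgeR 4.0.16 under R 4.3.3 after TMM scaling, with filterByExpr (minimum count 10, minimum total 15), a robust two-sided quasi-likelihood F test on strain, and Benjamini-Hochberg adjustment over 11149 genes, called at 0.05. Fold changes are RGL over SGL; SE was taken from the estimate and the square root of its F value. CPM are counts per 1000000 of TMM-scaled totals of tested genes, and deviations of RGL replicate 1 are on log2 of CPM plus 0.5. The script was tested on simulated counts.

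The members and lists were chosen with earlier results of these data known. Named members are up to 4 higher and 4 lower called genes per role, the member with the highest mean FPKM over 6 libraries per role, and all members of small roles; up to 2 per direction with at least 5 CPM are named per pathway list. Other members, protein henna, the count ratios, the level groups and the neighbour runs were chosen after their values were seen. Alternatives used DESeq2 1.42.0, limma 3.58.1, other scalings and filters, a replicate block and the omission of each library. By chi-square, no pair of libraries within a strain was alike enough to be 1 library, and all 6 were kept. Figures were made with Python 3.11.15 and matplotlib 3.10.9.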

Additional observations from a re-analysis of the deposited data

How the results depend on the processing

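Of the 47 called members, 35 (34 higher and 1 lower) were called in the same direction in each of 13 alternative fits. Members higher numbered 36 to 46 when each library was left out in turn, and at least 2-fold higher 15 to 19. Members lower ranged from 1 to 9 and at least 2-fold lower from 0 to 1 when libraries were left out. All tested genes lower ranged from 788 to 2826 and the median of members from 0.53 to 0.63. Transporters lower ranged from 1 to 7, and ornithine and proline genes lower and members of another role lower each from 0 to 1. In the pathway lists the genes higher ranged from 5 to 9 (arginine and polyamines), 5 to 8 (branched-chain breakdown), 5 to 10 (other carriers) and 1 to 2 (lysozymes). The genes lower ranged from 0 to 1, 0 to 1 and 0 to 2 in the first 3 of these, from 0 to 4 in methionine and one-carbon genes and from 0 to 1 in phenylalanine and tyrosine use.

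With library totals alone, members lower were 8 and 1 at least 2-fold, the median of members 0.42, transporters lower 7, ornithine and proline genes lower 1, serine and glycine genes higher 0, methionine and one-carbon genes lower 4, and phenylalanine and tyrosine genes lower 1. This scaling lowers the median of all tested genes, of which 20.8% were then lower. DESeq2's Wald test gave 6 members lower, where 15.4% of all tested genes were lower. Of these members 1 was among ornithine and proline genes and 1 of another role, and 1 other carrier was lower. DESeq2 size factors in edgeR and limma-voom each gave 1 other carrier lower. Members chosen by Swiss-Prot text instead, a smaller set of 46 genes, had 1 lower. The cause of the changes under the other tests was not tested. Antizyme LOC114121087, not called, turned to -0.062 with library totals alone and ranged from -0.061 (without RGL replicate 1) to 0.177 with libraries left out.

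No pairing by replicate number was seen: same-numbered libraries had correlations of deviations of -0.01, -0.03 and -0.02, and 0 of 6 libraries correlated best with their own number. With 3 libraries per strain and RGL replicate 1 standing apart, these values cannot show whether same-numbered libraries shared a batch. With the replicate number as a block, 43 members rose and 4 fell, where 18.9% of all tested genes rose and 11.8% fell. Members of another role lower were then 1, arginine and polyamine genes lower 0, and methionine and one-carbon genes lower 1. Genes with few counts, such as LOC114130486, had wide errors, so differences there were not detectable at this depth.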
